A study of Mus musculus with 12 samples.

Results

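The 10 genes described here encode receptors of the TNF receptor superfamily that T cells can carry: Tnfrsf4, Tnfrsf9, Tnfrsf18, Tnfrsf1a, Tnfrsf1b, Tnfrsf8, Tnfrsf25, Tnfrsf13b, Tnfrsf14 and Cd27. They were chosen by name, and each was read from the array row that carries its symbol alone, the brightest such row by mean over 12 arrays where a gene has several. They are 10 of the 22180 genes measured, and 10 of 10 had such a row. Values are log2 signal intensities after RMA, so a difference of 1 is a 2-fold difference in signal.

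Receptors of this family bind trimeric ligands and signal through their cytoplasmic tails. Most of the members recruit TRAF adaptors, which switch on the transcription factor NF-kB and favour survival and division of activated T cells. Tnfrsf1a and Tnfrsf25 instead carry a death domain, which binds the adaptor Tradd and can lead either to NF-kB or to caspases. Regulatory T cells are known for high levels of several of the costimulatory receptors, and antibodies to these receptors are used to modulate them.

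The natural regulatory T cells (nTregs) came from spleens of B6.Foxp3GFP mice, in which a green reporter marks the regulatory T cell factor Foxp3. The Treg-depleted T cells came from B6.Foxp3GFP x B6.CAGDSRED mice, which also carry the red protein DsRed under the broadly active CAG promoter, and the strain label of every sample names B6.Foxp3GFP crossed to B6.Cg-Tg(CAG-DsRed*MST)1Nagy/J. All 4 groups shared a co-culture of 1 part nTregs with 10 parts Treg-depleted cells, activated for 2 days by beads against CD3 and CD28 with human interleukin-2 at 500 U/mL. The cultures were then kept for 2 days with PBS or with 1 µM azacitidine (AzaC), a cytidine analogue whose incorporation into DNA traps DNA methyltransferases, and were sorted into nTregs (CD4+, DsRed-, Foxp3 reporter+) and effector cells, called CD4 cells here (CD4+, DsRed+, Foxp3 reporter-). Each group has 3 arrays, named below by population, treatment and replicate number as in the labels, where AZA stands for AzaC. No source used here gives the age of the animals or says whether replicates were separate animals or cultures, so the p-values reflect a spread between samples that may be technical. In these bulk samples, fewer cells of a type and less RNA per cell cannot be told apart.

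Array medians lay between 6.67 and 6.80, and 0 of 66 pairs of arrays were identical. The array nTreg PBS 1 stood apart: it correlated with the others at 0.973 on average, where the remaining arrays had averages of 0.979 to 0.987. It was also the lowest of its group for 10 of 10 receptors, where it was the lowest for 36.6% of all genes, so receptor values and calls that moved by over 1.5 times without it are given without it too. Foxp3, on whose reporter the cells were sorted, read 11.98 to 12.72 on nTreg arrays and 7.79 to 9.85 on CD4 arrays. The mean of 8 regulatory T cell markers lay between 10.89 and 11.50 on nTreg arrays and between 9.28 and 9.79 on CD4 arrays, and 8 of 8 passed as higher in nTregs in both conditions. Foxp3 is 1 of the 8, and the sort on its reporter set its direction in advance. Of all genes, 3.9% passed as higher under PBS and 4.57% with AzaC. The mean of 7 T cell markers lay between 12.11 and 12.17 in CD4 cells under PBS, above the 11.72 to 11.97 of the other 3 groups. Of the 7, Cd4 (−0.83, adjusted p = 0.00408), Cd3e (−0.77, 0.0147) and Thy1 (−0.40, 0.0199) were lower in nTregs under PBS, and Cd2 was higher in nTregs with AzaC (0.68, 0.00181). Of all genes, 4.12% passed as lower under PBS. Markers of B cells (9 genes, 6.0 to 6.30), of myeloid and dendritic cells (11 genes, 6.05 to 6.50) and of NK cells (5 genes, 6.12 to 6.56) had low mean log2 signals. The ranges of the groups overlapped, except that the B cell mean of CD4 cells under PBS (6.01 to 6.06) lay below both nTreg groups (6.13 to 6.30), and the myeloid mean of nTregs was lower with AzaC (6.05 to 6.24) than under PBS (6.29 to 6.50). The part of these in the receptor differences was not tested.

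Of the 10 genes, 7 lie on mouse chromosome 4, 2 on chromosome 6 (Cd27 and Tnfrsf1a) and 1 on chromosome 11 (Tnfrsf13b). Tnfrsf4 and Tnfrsf18 are neighbours with 0 protein-coding genes between them, and so are Tnfrsf1b and Tnfrsf8. Because AzaC blocks the enzymes that methylate cytosine in CG pairs, promoter windows of the 4 receptors that AzaC changed in either population are printed here with their CG pairs in capitals. Each window runs from 250 bases before to 50 bases after a RefSeq transcription start on build GRCm38.p6, 5′ to 3′ on the gene's strand. Tnfrsf9 has windows at an upstream and a downstream start, and the downstream one is shown because it holds the motif matches given next, of which the upstream one holds 0. The positions are chr4:150927749-150928048 (plus strand) for Tnfrsf9, chr4:145315115-145315414 (minus strand) for Tnfrsf8, chr4:156013445-156013744 (plus strand) for Tnfrsf4 and chr6:125236978-125237277 (minus strand) for Cd27.
Tnfrsf9, downstream start: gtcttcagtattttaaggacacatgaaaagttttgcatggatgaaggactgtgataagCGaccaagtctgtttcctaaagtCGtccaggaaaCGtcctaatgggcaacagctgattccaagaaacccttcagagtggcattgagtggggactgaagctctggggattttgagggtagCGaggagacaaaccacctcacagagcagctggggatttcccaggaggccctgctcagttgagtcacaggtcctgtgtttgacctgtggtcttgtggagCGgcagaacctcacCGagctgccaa
Tnfrsf8: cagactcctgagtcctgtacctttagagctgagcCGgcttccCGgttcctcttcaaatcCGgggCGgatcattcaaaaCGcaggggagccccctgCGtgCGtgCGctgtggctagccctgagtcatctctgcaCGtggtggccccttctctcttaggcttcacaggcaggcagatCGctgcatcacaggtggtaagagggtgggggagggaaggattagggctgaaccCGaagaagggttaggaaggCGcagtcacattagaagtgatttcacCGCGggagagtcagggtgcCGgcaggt
Tnfrsf4: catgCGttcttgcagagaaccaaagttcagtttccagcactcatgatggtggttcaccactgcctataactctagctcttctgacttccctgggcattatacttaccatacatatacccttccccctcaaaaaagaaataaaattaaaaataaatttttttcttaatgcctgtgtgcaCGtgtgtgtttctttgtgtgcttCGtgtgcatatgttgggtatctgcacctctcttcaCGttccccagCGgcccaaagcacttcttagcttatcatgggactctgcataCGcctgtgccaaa
Cd27: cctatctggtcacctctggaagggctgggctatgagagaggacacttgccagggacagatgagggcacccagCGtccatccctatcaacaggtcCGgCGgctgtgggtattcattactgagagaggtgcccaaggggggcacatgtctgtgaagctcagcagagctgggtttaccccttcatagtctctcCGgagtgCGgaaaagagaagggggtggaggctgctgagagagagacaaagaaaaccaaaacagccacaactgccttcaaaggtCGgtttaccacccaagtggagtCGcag
The Tnfrsf8 window holds 15 CG pairs, that of Cd27 holds 7, and those of Tnfrsf4 and of the downstream Tnfrsf9 start hold 6 each. The upstream Tnfrsf9 window, which is not printed, holds 4. The median over all 32851 mouse windows of this length was 7, with quartiles of 3 and 20, so these windows lie between the quartiles of all promoters. DNA methylation was not measured in this study's arrays.

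In the same windows, 3 short motifs were searched on both strands: the 10-letter NF-kB motif, the AP-1 motif TGANTCA and the forkhead motif TGTTTAC. The NF-kB motif matched in 3 of the 12 windows of the 10 receptors, where 8.46% of all windows hold it. In the Tnfrsf9 window shown it reads GGGGATTTCC from base 208, counted from 1 at the 5′ end, overlapping a second match 1 base further on. In the Tnfrsf8 window it reads GGGGAGCCCC from base 83, with an overlapping match from base 84, and the remaining window is at the downstream start of Tnfrsf25. AP-1 matched in 2 of the 12 windows, against 7.81% of all windows, as TGAGTCA from base 236 in the Tnfrsf9 window and from base 119 in the Tnfrsf8 window. The forkhead motif matched in 0 of 12, against 3.65% of all windows. A match is a description of the letters and shows no binding.

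Between the populations, 6 of the 10 receptors were higher in nTregs than in CD4 cells under PBS and 0 were lower, in limma at an adjusted p under 0.05. They were Tnfrsf4, Tnfrsf9, Tnfrsf18, Tnfrsf1b, Tnfrsf8 and Tnfrsf13b. Of all genes, 8.01% passed in this comparison, 3.9% as higher and 4.12% as lower. The same 6 passed as higher with AzaC and again 0 as lower, where 6.75% of all genes passed, 4.57% as higher and 2.19% as lower. The split over all genes moves with the scaling: 864 higher and 913 lower under PBS became 583 and 1415 with each array centred on its median, and 1013 and 485 with AzaC became 857 and 657 after repeated quantile normalization. The median difference of the 10 receptors was 0.64 under PBS and 0.89 with AzaC, beside 0.03 and −0.04 over all genes. Values of nTregs and CD4 cells did not overlap for 8 of the 10 receptors in either condition, where 26.7% of all genes did not overlap under PBS and 32.3% with AzaC. Under PBS the 8 included Tnfrsf1a and Cd27, whose nTreg values were the lower ones. With AzaC the nTreg values were the higher ones for all 8, Tnfrsf25 and Cd27 among them. The comparisons between populations and those of AzaC with PBS share arrays and are not independent.

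Among the costimulatory receptors, Tnfrsf9 (CD137), which sustains division and survival of activated T cells, differed most between the populations. In CD4 cells it read 8.29, 8.61 and 8.63 under PBS and 8.43, 9.01 and 8.91 with AzaC. In nTregs it read 10.78, 11.21 and 11.23 under PBS and 11.73, 11.99 and 11.80 with AzaC. All 6 nTreg arrays lay above all 6 CD4 arrays, and the nTreg groups did not overlap each other, while the CD4 groups did. The signal was 5.93-fold higher in nTregs under PBS (log2 difference 2.57, SE 0.17, adjusted p = 3.61e-07) and 8.32-fold higher with AzaC (3.06, SE 0.17, adjusted p = 8.35e-08).

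Tnfrsf4 (OX40), a receptor that prolongs T cell responses after activation, had 4 groups of values that lay apart. CD4 cells read 10.63, 10.57 and 10.51 under PBS and 11.11, 11.16 and 11.12 with AzaC. Regulatory cells read 12.10, 12.23 and 12.23 under PBS and 12.48, 12.50 and 12.49 with AzaC. No array of one group overlapped those of another, and the order was CD4 PBS, CD4 AzaC, nTreg PBS and nTreg AzaC from low to high. The difference between the 2 nTreg groups did not pass in limma (0.30, adjusted p = 0.107), and 24.5% of all genes did not overlap there. The populations differed 3.07-fold under PBS (1.62, SE 0.09, adjusted p = 1.03e-07) and 2.57-fold with AzaC (1.36, SE 0.09, adjusted p = 4.83e-07).

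Tnfrsf8 (CD30), a TRAF-binding receptor induced by activation, read 7.35, 6.84 and 7.37 in CD4 cells under PBS and 7.05, 7.37 and 7.56 with AzaC. In nTregs it read 8.07, 8.78 and 8.70 under PBS and 9.21, 9.45 and 9.31 with AzaC. The CD4 groups overlapped, and each nTreg group lay apart from the other and from all CD4 arrays. The difference between populations was 1.33 under PBS (SE 0.19, 2.51-fold, adjusted p = 0.000685) and 2.00 with AzaC (SE 0.19, 3.99-fold, adjusted p = 1.83e-05).

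Tnfrsf18 (GITR), the chromosomal neighbour of Tnfrsf4 and a costimulatory receptor long used to mark regulatory T cells, had a narrower range. It read 11.66, 11.48 and 11.34 in CD4 cells under PBS, 11.71, 11.47 and 11.48 in CD4 cells with AzaC, 12.27, 12.33 and 12.32 in nTregs under PBS and 12.54, 12.39 and 12.46 in nTregs with AzaC. All nTreg arrays were above all CD4 arrays, the CD4 groups overlapped, and the nTreg groups did not. The log2 difference between populations was 0.81 under PBS (SE 0.11, adjusted p = 0.000336) and 0.91 with AzaC (SE 0.11, adjusted p = 0.000113).

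Tnfrsf1b (TNFR2), the TNF receptor without a death domain, read 8.82, 8.62 and 8.43 in CD4 cells under PBS and 8.52, 8.76 and 8.97 with AzaC. Its nTreg values were 9.06, 9.65 and 9.44 under PBS and 9.74, 9.81 and 9.73 with AzaC, so nTregs were above CD4 cells on every array, and the lowest nTreg array was nTreg PBS 1. The signal was 1.70-fold higher in nTregs under PBS (0.76, SE 0.16, adjusted p = 0.00825) and 2.01-fold higher with AzaC (1.01, SE 0.16, adjusted p = 0.00101). In a fit of only the 2 PBS groups its adjusted p was 0.0614.

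Tnfrsf13b (TACI), a receptor for the ligands BAFF and APRIL best known from B cells, read 6.33, 6.44 and 6.41 in CD4 cells under PBS and 6.13, 6.26 and 6.18 with AzaC. In nTregs it read 6.77, 6.88 and 7.06 under PBS and 6.88, 7.14 and 7.19 with AzaC, above every CD4 array in both conditions. It differed by 0.51 under PBS (SE 0.11, adjusted p = 0.0124; 0.0508 without CD4 PBS 1 and 0.0640 in a fit of only the 2 PBS groups) and by 0.88 with AzaC (SE 0.11, adjusted p = 0.000192). Of the 9 B cell markers measured, 1 was also higher in nTregs: Cd79b, a chain of the B cell receptor, by 0.80 under PBS (SE 0.16, adjusted p = 0.00691) and by 1.08 with AzaC (SE 0.16, adjusted p = 0.000716). Of all genes, 3.9% passed as higher under PBS and 4.57% with AzaC. The mean of the 9 markers was 6.13 to 6.30 in nTregs under PBS against 6.01 to 6.06 in CD4 cells, and 6.14 to 6.19 against 6.0 to 6.18 with AzaC. The sort took CD4+ cells, and the part of B cell RNA in the Tnfrsf13b difference was not tested. On 11 of 12 arrays the Tnfrsf13b signal was above the array's 30th percentile of all genes, and for the other 9 receptors this held on 12 of 12. The Tnfrsf13b signal was low in CD4 cells. Its values there with AzaC, 6.13, 6.26 and 6.18, lay close to those arrays' 30th percentiles of 6.19, 6.11 and 6.15.

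The remaining receptors did not pass between the populations. Cd27, which binds CD70 and supports survival of naive and memory T cells, was on the opposite side of the comparison in each condition, at −0.28 under PBS (SE 0.11, adjusted p = 0.159) and 0.22 with AzaC (SE 0.11, adjusted p = 0.295). Its groups did not overlap in either, and without nTreg PBS 1 the PBS value was −0.18. Tnfrsf14 (HVEM), the receptor for LIGHT and BTLA, stood at −0.28 (SE 0.15, adjusted p = 0.269) and −0.03 (SE 0.15, adjusted p = 0.941), the first −0.12 without nTreg PBS 1. Of the death domain receptors, Tnfrsf1a (TNFR1) stood at −0.40 under PBS (SE 0.15, adjusted p = 0.114) and −0.07 with AzaC (adjusted p = 0.836). Without nTreg PBS 1, where it read 7.71 against 8.30 and 8.28 on the other 2 arrays, the PBS value was −0.21. Tnfrsf25 (DR3), the receptor for TL1A, stood at −0.01 (SE 0.15, adjusted p = 0.964) and 0.35 (SE 0.15, adjusted p = 0.192), and without nTreg PBS 1 the first was 0.14.

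**Figure D1:**
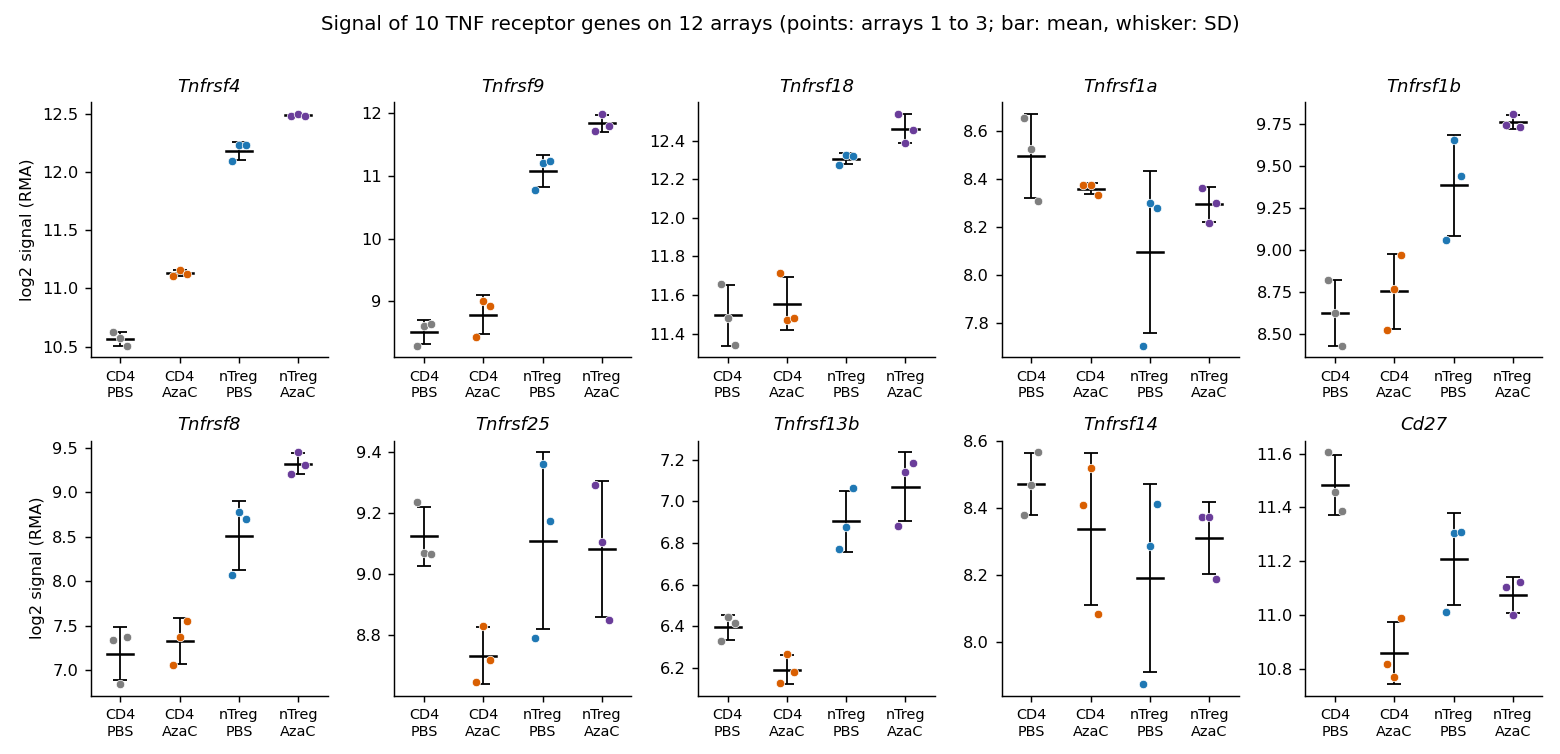
Log2 RMA signal (y axis) of each of the 10 receptor genes on 12 arrays by group (x axis); points are single arrays, the bar is the mean and the whisker the SD of 3 arrays, and each panel has its own scale. Tnfrsf9 in nTregs lies between 10.78 and 11.99, above the CD4 range of 8.29 to 9.01, and the 4 groups of Tnfrsf4 do not overlap.

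AzaC minus PBS was measured within each population. In nTregs, 2 of the 10 receptors rose and 0 fell, where 2.02% of all genes passed, 1.42% as higher and 0.6% as lower. Over all genes 315 rose and 133 fell as deposited, 394 and 84 with each array centred on its median, and 252 and 184 after repeated quantile normalization. Both are TRAF-binding receptors that were already higher in nTregs. Tnfrsf9 rose 1.70-fold (log2 difference 0.77, SE 0.17, adjusted p = 0.0319), with AzaC values of 11.73 to 11.99 above PBS values of 10.78 to 11.23. Tnfrsf8 rose 1.75-fold (0.81, SE 0.19, adjusted p = 0.0483), from 8.07 to 8.78 under PBS to 9.21 to 9.45 with AzaC.

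The calls of Tnfrsf9 and Tnfrsf8 depended on single arrays. Tnfrsf9 was at 0.62 without nTreg PBS 1 (adjusted p = 0.0808), and its call was also lost without nTreg AZA 1, 2 or 3 (adjusted p = 0.0711, 0.149 and 0.102). Tnfrsf8 kept its call without CD4 PBS 2 or nTreg PBS 2 and lost it without each of the other 10 arrays, at adjusted p-values of 0.0527 to 0.192 and differences of 0.59 to 0.90, the lowest without nTreg PBS 1. Both lost it in a fit of only the 2 nTreg groups (adjusted p = 0.0791 and 0.129), and Tnfrsf8 also after repeated quantile normalization (0.0762).

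Values with AzaC did not overlap those with PBS in nTregs for 5 of the 10 receptors, Tnfrsf4, Tnfrsf9, Tnfrsf18, Tnfrsf1b and Tnfrsf8, all of them higher with AzaC, where 24.5% of all genes did not overlap. Tnfrsf4 stood at 0.30 (SE 0.09, adjusted p = 0.107), Tnfrsf1b at 0.38 (SE 0.16, adjusted p = 0.244) and Tnfrsf18 at 0.16 (SE 0.11, adjusted p = 0.478). The other 5 stood at 0.20 (Tnfrsf1a), 0.17 (Tnfrsf13b), 0.12 (Tnfrsf14), −0.03 (Tnfrsf25) and −0.13 (Cd27), with SEs of 0.11 to 0.15. The receptors' median was 0.18, beside −0.04 over all genes. That median includes nTreg PBS 1, and each of the 10 values was lower without this array. Without nTreg PBS 1, Tnfrsf1b stood at 0.22, Tnfrsf1a at 0.0048, Tnfrsf13b at 0.10, Tnfrsf14 at −0.0378, Tnfrsf25 at −0.19 and Cd27 at −0.23.

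The CD8 T cell markers moved in the same nTreg comparison. Cd8a read 6.45, 6.73 and 7.39 under PBS and 8.32, 8.17 and 8.24 with AzaC (1.39, SE 0.19, adjusted p = 0.0018). Cd8b1 read 10.25, 10.48 and 10.53 under PBS and 11.17, 11.06 and 11.20 with AzaC (0.72, SE 0.15, adjusted p = 0.0213; 0.0547 to 0.0974 without nTreg PBS 1 or any of the nTreg AzaC arrays). Thus 2 of 2 markers rose, where 1.42% of all genes did, and their mean ranged from 8.35 to 8.96 under PBS and from 9.62 to 9.75 with AzaC. In CD4 cells their mean was 8.46 to 8.55 under PBS and 8.11 to 8.54 with AzaC. The interaction did not pass in limma for Cd8a (1.35, adjusted p = 0.0666) or Cd8b1 (1.00, adjusted p = 0.0709). With AzaC both were also higher in nTregs than in CD4 cells, Cd8a by 1.36 (adjusted p = 0.000454) and Cd8b1 by 1.27 (adjusted p = 7.85e-05). Of all genes, 4.57% passed as higher there. The sort took CD4+ cells, and CD8 T cells can carry CD137 after activation. Whether the Cd8a and Cd8b1 signal came from CD8 T cells was not tested. Nor was the part of such cells in the receptors' rise or in their population differences with AzaC. The same holds for the ligands and downstream genes given below.

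In CD4 cells, AzaC raised 1 of the 10 receptors and lowered 1, where 1.76% of all genes passed, 0.83% as higher and 0.933% as lower (184 rose and 207 fell as deposited, 132 and 351 with each array centred, and 203 and 138 after repeated quantile normalization). Tnfrsf4 rose 1.48-fold, from 10.51 to 10.63 under PBS to 11.11 to 11.16 with AzaC (0.56, SE 0.09, adjusted p = 0.00497), and kept its call without any single array. Cd27 read 11.61, 11.46 and 11.39 under PBS and 10.82, 10.77 and 10.99 with AzaC, with no overlap. Its fall (−0.63, SE 0.11, adjusted p = 0.0114) no longer passed when CD4 PBS 1 was left out (0.0581) or when CD4 AZA 1 was (0.0562). In the same comparison 7 of 7 T cell markers stood below 0 (median −0.23) and 0 passed in limma, 2 at an unadjusted p under 0.05 (15.2% of all genes). Their part in the fall of Cd27 was not tested.

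Values did not overlap for 4 of the 10 receptors in CD4 cells, against 23.6% of all genes. Besides Tnfrsf4 and Cd27 these were Tnfrsf25 at −0.39 (SE 0.15, adjusted p = 0.226) and Tnfrsf13b at −0.20 (SE 0.11, adjusted p = 0.407). The other receptors stood at 0.28 (Tnfrsf9), 0.14 (Tnfrsf8), 0.13 (Tnfrsf1b), 0.06 (Tnfrsf18), −0.13 (Tnfrsf14) and −0.14 (Tnfrsf1a), with overlapping groups. The median of the 10 was −0.04, beside 0.01 over all genes. In the same comparison 2 of the 8 regulatory T cell markers rose (0.83% of all genes): Foxp3 by 1.57 (SE 0.16, adjusted p = 0.000207), from 7.79 to 8.26 under PBS to 9.39 to 9.85 with AzaC, and Il2ra by 0.59 (SE 0.09, adjusted p = 0.00383). The other markers did not pass. They stood at 0.84 (Lrrc32), 0.29 (Nrp1), 0.18 (Gpr83), 0.06 (Ikzf2), −0.16 (Ctla4) and −0.17 (Izumo1r). The sort had taken reporter-negative cells, and the part of regulatory T cells in the Tnfrsf4 rise was not tested.

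**Figure D2:**
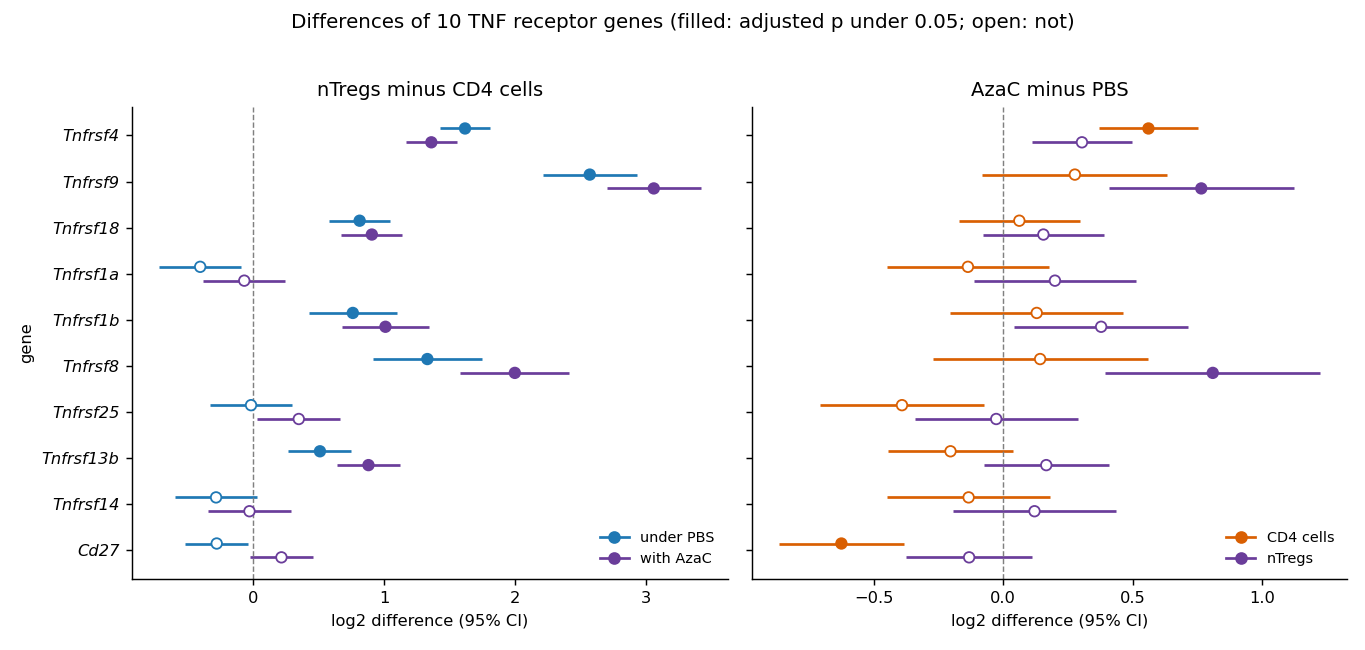
Log2 differences (x axis) of the 10 receptor genes (y axis) between nTregs and CD4 cells (left) and between AzaC and PBS (right); bars are 95% confidence intervals from limma, filled points have an adjusted p under 0.05. On the left the same 6 receptors are filled in both conditions, and on the right Tnfrsf4 and Cd27 are filled in CD4 cells and Tnfrsf9 and Tnfrsf8 in nTregs.

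The difference between the 2 AzaC effects was tested as an interaction, nTregs minus CD4 cells. In limma 0 of the 10 receptors passed, where 0.203% of all genes did, and 3 receptors had an unadjusted p under 0.05 (17.5% of all genes). Those 3 were Cd27 (0.49, 95% confidence interval 0.15 to 0.84, adjusted p = 0.199), Tnfrsf8 (0.67, interval 0.08 to 1.25, adjusted p = 0.247) and Tnfrsf13b (0.37, interval 0.03 to 0.71, adjusted p = 0.256). Tnfrsf9 stood at 0.49 (interval −0.02 to 0.99, adjusted p = 0.300), and Tnfrsf4 was the receptor with a value below 0 (−0.26, interval −0.53 to 0.02, adjusted p = 0.309). The other 9 were above 0, with a median over the 10 of 0.35 beside −0.04 over all genes. That median includes nTreg PBS 1, and each of the 9 values was lower without this array. Without nTreg PBS 1 the values were 0.39 for Cd27, 0.44 for Tnfrsf8 and 0.30 for Tnfrsf13b, and those of Tnfrsf1a (0.34), Tnfrsf25 (0.36), Tnfrsf14 (0.25) and Tnfrsf1b (0.25) became 0.14, 0.21, 0.10 and 0.09. With a median SE of 0.18 for an interaction, the AzaC effects on no receptor were shown to differ between the populations, and intervals reaching 1.25 do not show that they were alike.

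The order of the 4 group means was the same for 5 of the receptors. For Tnfrsf4, Tnfrsf9, Tnfrsf18, Tnfrsf1b and Tnfrsf8 it ran from nTregs with AzaC through nTregs under PBS and CD4 cells with AzaC to CD4 cells under PBS. In these, nTregs under PBS differed from CD4 cells with AzaC each time (7.34% of all genes passed there), by 1.06 for Tnfrsf4 (adjusted p = 5.78e-06), 2.29 for Tnfrsf9 (1.16e-06), 0.75 for Tnfrsf18 (0.000629), 0.63 for Tnfrsf1b (0.0233) and 1.19 for Tnfrsf8 (0.00161). The upper neighbours differed for Tnfrsf9 and Tnfrsf8, and the lower ones for Tnfrsf4, as given above. Tnfrsf13b had its CD4 groups the other way round, with neighbours that differed between nTregs and CD4 cells under PBS. For Tnfrsf1a, Tnfrsf25, Tnfrsf14 and Cd27 no neighbours in the order passed. Over the 12 arrays, the range of a receptor's signal was widest for Tnfrsf9 (3.71) and narrowest for Tnfrsf14 (0.69).

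Genes with the most similar pattern were ranked by the root mean square difference over 12 arrays, after each gene was centred on its mean. The 3 nearest of 18726 genes searched were Gzmb (granzyme B, 0.189), Map3k20 (0.212) and Firre (0.214) for Tnfrsf4, and Gzmc (granzyme C, 0.318), Enah (0.349) and Frmd5 (0.350) for Tnfrsf9. Those of Tnfrsf8 were Rab27a (0.259), Itgae (the integrin CD103, 0.263) and Myo3b (0.263). Tnfrsf18 was nearest to Clcn5 (0.0916), Ptger2 (0.105) and Wwp1 (0.105), and Tnfrsf1b to Adam9 (0.133), Adamtsl4 (0.138) and Adap1 (0.148). Tnfrsf13b was nearest to Sipa1l2 (0.114), Zfp608 (0.114) and Myadm (0.122), and Cd27 to Hacl1 (0.0879), Acsf2 (0.0975) and Borcs6 (0.102). These distances are descriptions over arrays that share groups and scaling, and a gene with a narrow range gives small ones. Among the receptors themselves the nearest pair was Tnfrsf1a and Tnfrsf14 (0.161). The chromosomal neighbours Tnfrsf4 and Tnfrsf18 stood at 0.374, and Tnfrsf1b and Tnfrsf8 at 0.447.

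The ligands of these receptors were measured in the same cells. AzaC raised 4 of the 12 measured ligand genes in CD4 cells and 3 in nTregs, and lowered 0 in either. Of all genes, 0.83% rose in CD4 cells and 1.42% in nTregs. Tnf and Lta encode TNF and lymphotoxin alpha, the ligands of Tnfrsf1a and Tnfrsf1b. Tnf read 10.12, 9.97 and 9.56 in CD4 cells under PBS and 11.19, 10.91 and 10.92 with AzaC, and it rose by 1.12 (SE 0.16, adjusted p = 0.00268). In nTregs it read 9.41, 9.91 and 9.92 under PBS and 10.77, 10.90 and 10.71 with AzaC, and it rose by 1.05 (SE 0.16, adjusted p = 0.00394). The groups did not overlap in either population. Lta rose by 0.80 in CD4 cells (SE 0.13, adjusted p = 0.00508) and by 0.66 in nTregs (SE 0.13, adjusted p = 0.0167; lost without nTreg AZA 1 or 3, at 0.0731 and 0.0866).

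Tnfsf8 (CD30 ligand), which binds the product of Tnfrsf8, rose in both populations, by 1.06 in CD4 cells (SE 0.11, adjusted p = 0.000169) and by 0.59 in nTregs (SE 0.11, adjusted p = 0.0122; lost without nTreg AZA 1 or 2, at 0.0585 and 0.0697). Tnfsf4 (OX40 ligand), which binds the product of Tnfrsf4, read 6.51, 5.94 and 5.77 in CD4 cells under PBS and 7.31, 7.95 and 7.30 with AzaC, with no overlap. It rose by 1.45 there (SE 0.21, adjusted p = 0.00265) and stood at 0.55 in nTregs (SE 0.21, adjusted p = 0.212). Its values on CD4 PBS 2 and CD4 PBS 3 lay below those arrays' 30th percentiles of all genes (6.09 and 6.02). So in CD4 cells both Tnfrsf4 and its ligand passed as higher, and in nTregs both Tnfrsf8 and its ligand. The nTreg calls of Tnfrsf8 and Tnfsf8 depended on single arrays, and neither pair was shown to be particular to a population. Tnfsf8 rose in CD4 cells too. In nTregs, Tnfrsf4 (0.30) and Tnfsf4 lay above their PBS values without overlap but did not pass in limma, where 24.5% of all genes did not overlap. The calls of Tnf in both populations, and of Lta, Tnfsf8 and Tnfsf4 in CD4 cells, were kept without any single array. For the interaction 0 of the 12 ligands passed in limma (0.203% of all genes), 2 at an unadjusted p under 0.05 (17.5% of all genes).

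Between the populations, Tnfsf9 (CD137 ligand), which binds the product of Tnfrsf9, was higher in nTregs under PBS (0.72, SE 0.15, adjusted p = 0.0109; 0.0726 in a fit of only the 2 PBS groups) and with AzaC (0.88, SE 0.15, adjusted p = 0.00247). Its nTreg values of 7.98 to 8.52 lay above its CD4 values of 7.07 to 7.59, and it was not changed by AzaC in the test of either population. Tnfsf4 was higher in nTregs under PBS (0.75, adjusted p = 0.0440), with overlapping groups and a call lost without each array other than CD4 PBS 1, CD4 AZA 2 and nTreg PBS 1 (0.0542 to 0.176). Under AzaC, Cd70, the ligand of Cd27, was higher in nTregs (1.15, SE 0.31, adjusted p = 0.0372). Its nTreg values with AzaC were 7.02, 6.30 and 5.38 against 4.97 to 5.25 in CD4 cells, and the call was lost without any CD4 array, nTreg AZA 1 or nTreg AZA 2 (0.0503 to 0.150). These CD4 values and that of nTreg AZA 3 lay below their arrays' 30th percentiles of all genes (6.06 to 6.19). The difference was 0.76 without nTreg AZA 1 and 1.58 without nTreg AZA 3. Btla, a partner of Tnfrsf14, was lower in nTregs with AzaC (−0.43, SE 0.11, adjusted p = 0.0268; lost without CD4 AZA 1, CD4 AZA 2, nTreg AZA 2 or nTreg AZA 3, at 0.0651 to 0.127). The remaining ligands, Tnfsf15, Tnfsf18, Tnfsf13b, Tnfsf14 and Cd160, passed in 0 of the 5 comparisons. Tnfsf13 was not analysed here.

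**Figure D3:**
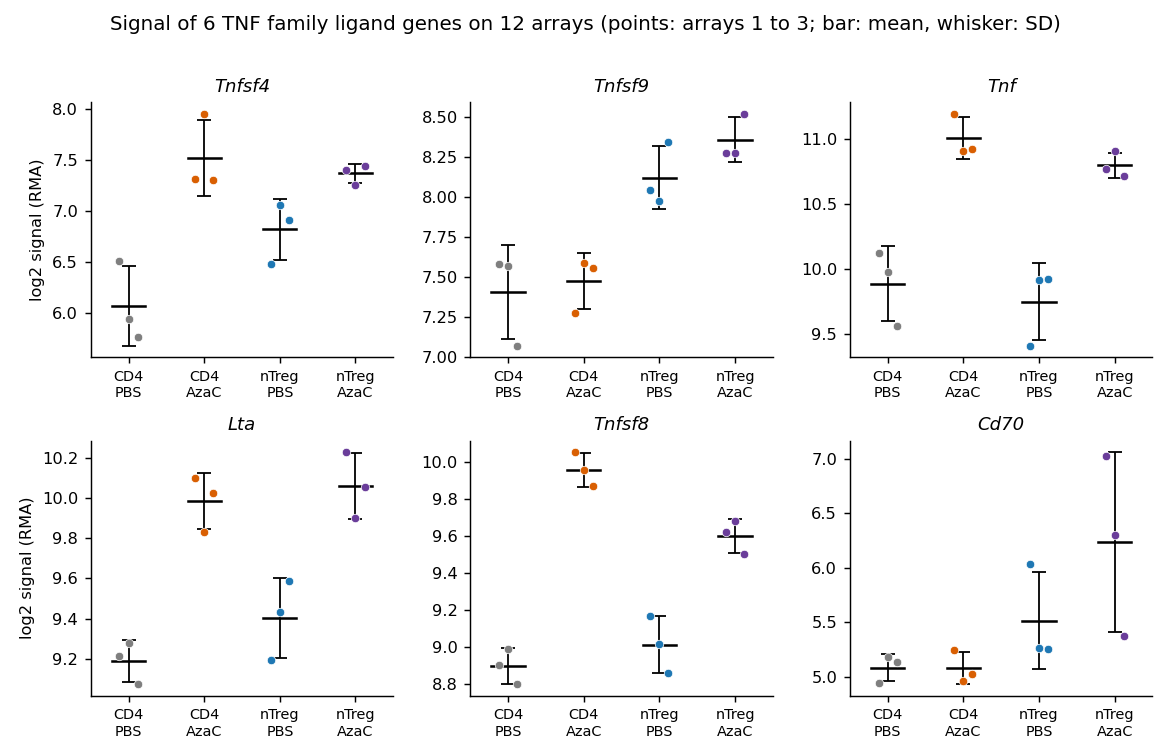
Log2 RMA signal (y axis) of 6 ligand genes of the receptors on 12 arrays by group (x axis); points are single arrays, the bar is the mean and the whisker the SD of 3 arrays. Tnf with AzaC lies at 10.71 to 11.19 in both populations against 9.41 to 10.12 under PBS, and Tnfsf9 is separated by population.

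Of 18 other receptors of the superfamily, AzaC raised 1 in CD4 cells (0.83% of all genes) and 0 in nTregs (1.42% of all genes). It was Tnfrsf10b, the death receptor for TRAIL and a p53 target, which read 7.30, 7.55 and 7.36 under PBS and 8.28, 8.60 and 8.47 with AzaC in CD4 cells (1.05, SE 0.12, adjusted p = 0.000445). In nTregs it stood at 0.44 (SE 0.12, adjusted p = 0.0854), and 5 of the 18 had an unadjusted p under 0.05 there, as did 16.8% of all genes. It was also higher in nTregs than in CD4 cells under PBS (1.05, adjusted p = 9.12e-05) and with AzaC (0.44, adjusted p = 0.0428; lost without CD4 PBS 1, CD4 AZA 1, CD4 AZA 3, nTreg PBS 2 or any nTreg AzaC array, at 0.0505 to 0.190). Tnfrsf22, a decoy receptor for TRAIL, was higher in nTregs under PBS (0.44, adjusted p = 0.0249; lost without CD4 PBS 1, CD4 PBS 3, nTreg PBS 1 or nTreg PBS 3, at 0.0607 to 0.0942) and with AzaC (0.61, adjusted p = 0.00320). Fas, the death receptor for Fas ligand, was higher in nTregs with AzaC (0.78, SE 0.11, adjusted p = 0.000439). Of these 18 genes, 2 passed as higher in nTregs under PBS and 3 with AzaC, with medians of 0.09 and −0.02. The shares of all genes were 3.9% and 4.57%.

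Downstream of the receptors, NF-kB genes rose with AzaC in the nTreg samples, where the CD8 T cell markers rose too. The part of CD8 T cells in this was not tested. Of 9 measured NF-kB subunits and inhibitors, 5 rose in nTregs and 0 fell (median 0.59, beside −0.04 over all genes). Among all genes 1.42% rose and 0.6% fell there. In CD4 cells 0 of 9 passed in limma and 0 had an unadjusted p under 0.05 (median 0.05), against 1.76% and 15.2% of all genes. Nfkb2, the precursor of the p52 subunit of the non-canonical pathway that several of these receptors use, read 8.52, 9.27 and 9.48 in nTregs under PBS and 10.77, 10.94 and 10.68 with AzaC (1.71, SE 0.20, adjusted p = 0.000489). Its CD4 values were 9.25, 9.41 and 9.22 under PBS and 9.49, 9.32 and 9.06 with AzaC, which overlapped. Relb, the partner of p52, rose by 1.17 in nTregs (SE 0.15, adjusted p = 0.0013).

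Nfkbie, an NF-kB inhibitor that is itself an NF-kB target, read 7.49, 7.83 and 7.73 in nTregs under PBS and 8.85, 9.02 and 8.85 with AzaC (1.23, SE 0.11, adjusted p = 6.44e-05), with no overlap. Bcl3, an inhibitor-like coactivator, rose by 0.81 (SE 0.11, adjusted p = 0.00187) and Nfkbia by 0.42 (SE 0.09, adjusted p = 0.0348; lost without each array other than CD4 PBS 3, CD4 AZA 1, CD4 AZA 2 and nTreg PBS 1, at 0.0517 to 0.134). The calls of Nfkb2, Relb, Nfkbie and Bcl3 were kept without any single array. The interaction passed for 2 of the 9 (0.203% of all genes), Nfkb2 (1.71, SE 0.28, adjusted p = 0.0253) and Nfkbie (1.39, SE 0.15, adjusted p = 0.00194). That of Nfkb2 was kept without each nTreg PBS array and lost without each of the other 9 arrays (0.0540 to 0.0894). Nfkb1 was not analysed here. Of the 14 calls in nTregs among ligands, adaptors, NF-kB genes and caspase-arm genes, those of Tnf, Birc2, Nfkb2, Relb, Nfkbie and Bcl3 were also kept in a fit of only the 2 nTreg groups.

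Between the populations, 6 of the 9 NF-kB genes were higher in nTregs with AzaC: Nfkb2 (1.51), Relb (0.98), Nfkbie (0.95), Nfkbia (0.80), Rel (0.69) and Bcl3 (0.61), with adjusted p-values of 7.91e-05 to 0.00395 and median 0.69. Under PBS 1 was higher, Nfkbia (0.49, adjusted p = 0.00523; 0.0518 in a fit of only the 2 PBS groups), and 1 was lower, Nfkbie (−0.44, adjusted p = 0.0245; lost without any CD4 PBS array or nTreg PBS 1, at 0.0516 to 0.0795). Of all genes, 4.57% passed as higher with AzaC, and under PBS 3.9% passed as higher and 4.12% as lower.

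Of 19 measured adaptors, ubiquitin ligases and kinases that act at the receptors, 4 rose with AzaC in nTregs and 0 fell. Among all genes 1.42% rose and 0.6% fell in nTregs, and 0.83% rose and 0.933% fell in CD4 cells. Birc2 and Birc3 encode cIAP1 and cIAP2, ligases bound to TRAF2 that restrain the non-canonical pathway, and they rose by 0.68 (SE 0.10, adjusted p = 0.00261) and 0.59 (SE 0.09, adjusted p = 0.00459). Traf1 rose by 0.66 (adjusted p = 0.0335; lost without CD4 PBS 1, CD4 AZA 3 or any nTreg AzaC array, at 0.0507 to 0.125) and Traf4 by 0.69 (adjusted p = 0.0289; lost without nTreg PBS 1, nTreg PBS 3 or any nTreg AzaC array, at 0.0616 to 0.125). In CD4 cells 0 rose and Tradd, the adaptor of the death domain receptors, fell by 0.50 (adjusted p = 0.0410; kept without nTreg PBS 1 or nTreg PBS 3 and lost without each other array, at 0.0501 to 0.175). The adaptors' median was 0.21 in nTregs and −0.15 in CD4 cells. The interaction passed for 1 of the 19 (0.203% of all genes), Birc2 (0.77, SE 0.14, adjusted p = 0.0482), which was kept without nTreg PBS 1 alone and lost without each other array (0.0762 to 0.152). It was also lost after repeated quantile normalization (0.58, adjusted p = 0.200) and with a variance trend and robust moderation (0.0512).

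Between the populations, the adaptors fell on both sides. Under PBS, 1 was higher in nTregs and 3 were lower, where 3.9% of all genes passed as higher and 4.12% as lower. Birc3 was higher (0.35, adjusted p = 0.0370; kept without CD4 AZA 1, CD4 AZA 2 or nTreg PBS 3 and lost without each other array, at 0.0504 to 0.123). The lower ones were Map3k14, the NIK kinase of the non-canonical pathway (−0.64, adjusted p = 0.00605; 0.0586 in a fit of only the 2 PBS groups), Ikbkb (−0.69, adjusted p = 0.0215; lost without CD4 PBS 2 or 3, at 0.0690 and 0.0729, and −0.44 without nTreg PBS 1) and Traf5 (−0.69, adjusted p = 0.0256; lost without any CD4 PBS array, at 0.0673 to 0.0755, and −0.45 without nTreg PBS 1). With AzaC 5 were higher and 0 lower (4.57% and 2.19% of all genes): Birc3 (0.95), Birc2 (0.94), Tab2 (0.63), Traf4 (0.66) and Traf1 (0.52). The calls of Traf4 (adjusted p = 0.0128; lost without CD4 AZA 1, nTreg AZA 1 or nTreg AZA 2, at 0.0545 to 0.0757) and Traf1 (0.0446; kept without a nTreg PBS array and lost without each other one, at 0.0505 to 0.129) depended on single arrays.

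The caspase arm and the negative regulators were 9 measured genes. In nTregs AzaC raised 2 of them, both negative regulators or binding partners of the pathway: Tnip1, a partner of A20 (0.72, adjusted p = 0.0100; lost without nTreg AZA 1 or 3, at 0.0510 and 0.0541), and Tank, a TRAF-binding protein (0.54, adjusted p = 0.0399; kept without CD4 PBS 2, CD4 PBS 3, CD4 AZA 1, CD4 AZA 2 or nTreg PBS 2 and lost without each other array, at 0.0571 to 0.163). In CD4 cells 0 of 9 passed in limma and 2 had an unadjusted p under 0.05, against 15.2% of all genes. Of all genes, 1.42% rose with AzaC in nTregs and 1.76% passed in CD4 cells. Casp8 stood at 0.14 in nTregs and 0.0041 in CD4 cells. Tnfaip3, which encodes A20, a ubiquitin editor that limits NF-kB, was higher in nTregs with AzaC (1.22, SE 0.22, adjusted p = 0.00337) and under PBS (0.77, SE 0.22, adjusted p = 0.0467; 1.12 without nTreg PBS 1, and lost without each array other than that one, at 0.0559 to 0.148). Tank was higher in nTregs under PBS (0.59, adjusted p = 0.00832; 0.0507 in a fit of only the 2 PBS groups) and with AzaC (1.19, adjusted p = 2.85e-05).

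Bid, a pro-apoptotic target of caspase-8, was higher in nTregs under PBS (0.43, adjusted p = 0.0308; lost without CD4 PBS 2, CD4 PBS 3 or nTreg PBS 3, at 0.0514 to 0.115) and with AzaC (0.40, adjusted p = 0.0426; kept without CD4 PBS 1, CD4 PBS 3, nTreg PBS 1 or nTreg PBS 3 and lost without each other array, at 0.0514 to 0.144). Tnip1 was higher with AzaC (0.56, adjusted p = 0.0159; lost without CD4 AZA 3, nTreg AZA 1 or nTreg AZA 3, at 0.0633 to 0.0705). Cflar, the inhibitor of caspase-8 at death receptors, was lower in nTregs under PBS (−0.47, adjusted p = 0.0166; lost without CD4 PBS 1 or 3, at 0.0565 and 0.0570). In all, 3 of the 9 were higher and 1 lower under PBS, and 4 were higher and 0 lower with AzaC. The shares of all genes were 3.9% and 4.12% under PBS, and 4.57% and 2.19% with AzaC.

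Under PBS there were 14 population calls among the other receptors, ligands, adaptors, NF-kB genes and caspase-arm genes. In a fit of only the 2 PBS groups that of Tnfrsf10b was kept, and the remaining 13 were at adjusted p-values of 0.0507 to 0.177. Centring each array also ended the PBS calls of Tnfrsf22 (0.0559), Tnfsf4 (0.0746), Birc3 (0.108), Bid (0.0582) and Tnfaip3 (0.0783). Repeated quantile normalization ended those of Tnfsf8 (0.0722), Tank (0.0689) and Nfkbia (0.0801) for AzaC in nTregs, of Tradd in CD4 cells (0.0728), of Tnfsf4 between the populations under PBS (0.0864), and of Tnfrsf10b (0.0893) and Bid (0.0968) between them with AzaC.

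**Figure D4:**
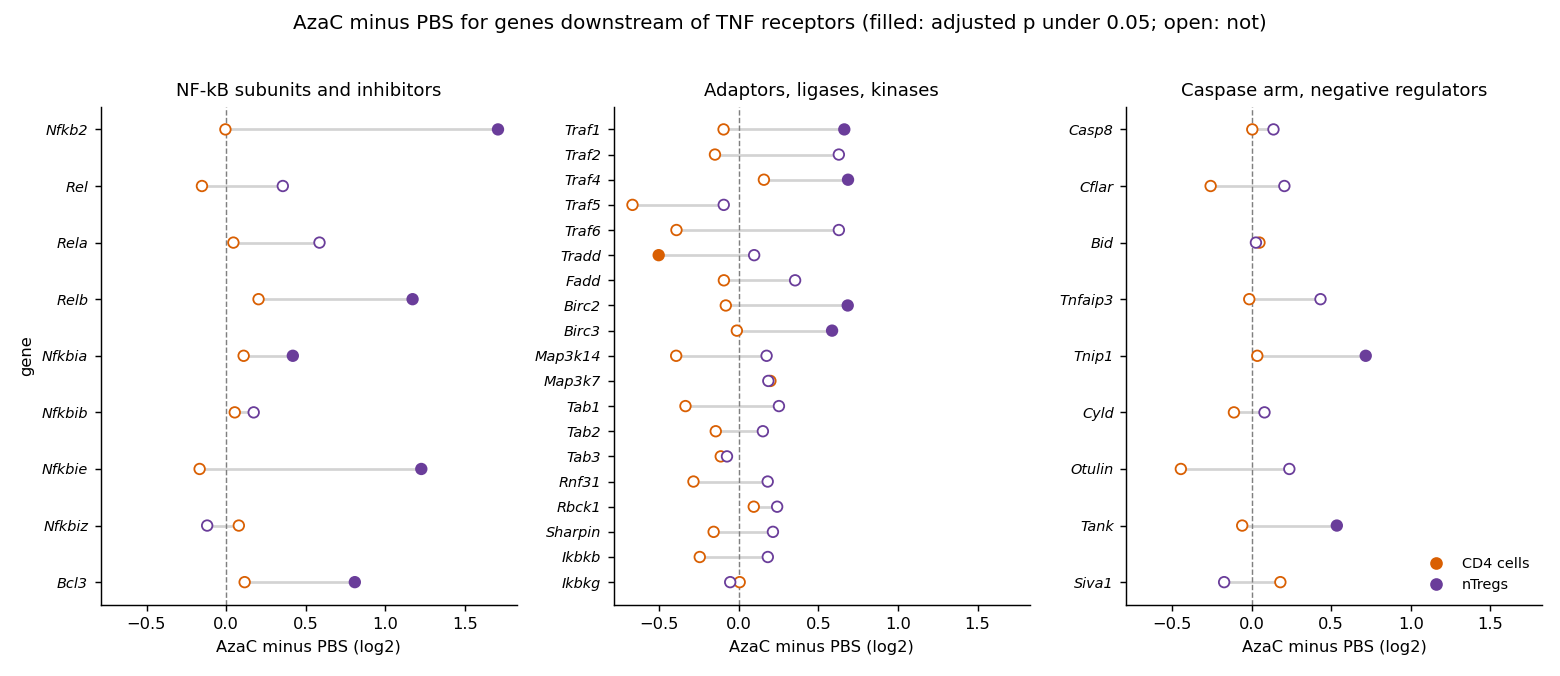
AzaC minus PBS (log2, x axis) for NF-kB genes, adaptors, and the caspase arm with negative regulators (y axes, 3 panels), in CD4 cells and nTregs; filled points have an adjusted p under 0.05, and a grey line joins the 2 populations. In the NF-kB panel 5 of 9 nTreg points are filled and none of the CD4 points, with Nfkb2 at 1.71 in nTregs.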

How the data were processed

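The arrays were 12 Affymetrix arrays of RNA from mouse T cells, with 3 samples for each of 4 groups. The submitters' processing notes name RMA and Affymetrix Expression Console, without versions, and the deposited log2 values were taken as the authors' RMA output. RMA corrects background, applies quantile normalization and summarises probes, so differences are relative to the whole array, and strong signals may be compressed. No source used here names the genome build behind the array annotation. Promoter windows came from RefSeq on GRCm38.p6, and 10 of 10 receptors matched by symbol.

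Of 41345 rows, 23521 carried exactly 1 gene symbol, 1814 several and 16010 none. The brightest row was kept for each of 22180 genes, with no filter on dim genes. All deposited value columns were placed, and 0 were left unused.

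Group means were estimated jointly over 12 arrays in limma 3.58.1, leaving 8 residual degrees of freedom. R was version 4.3.3, and the random block used statmod 1.5.0. The 5 comparisons were tested with moderated statistics and the Benjamini-Hochberg adjustment over all genes, at 0.05. The pipeline was tested on simulated data. The number of arrays limits the precision, with a median SE of 0.13 for a difference.

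Named were all receptors, their ligands, up to 6 called genes per fixed list and comparison by smallest p, the 3 most similar genes of each receptor that passed, and markers. The receptors, the lists and the motifs were chosen with earlier results of these data known. Same-numbered arrays of different groups deviated from their group means with correlations of −0.10 to 0.19, over 0.1 in 3 of 18 pairs, so the numbers were not taken to pair the samples.

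Tried as alternatives were centring, a filter on dim genes, repeated quantile normalization, leaving out each array, the mean over a gene's rows, replicate blocks, fits of only the groups compared, array weights and a variance trend with robust moderation.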

Additional observations from a re-analysis of the deposited data

Results flagged for a closer look

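The AzaC effect differed between nTregs and CD4 cells, by limma's test of the interaction, for 4 of the genes named around the receptors. Of all genes, 0.203% passed in this test. The values are the effect in nTregs minus the effect in CD4 cells on the log2 scale. They were 1.71 for Nfkb2 (SE 0.28, adjusted p = 0.0253), 1.39 for Nfkbie (SE 0.15, adjusted p = 0.00194) and 0.77 for Birc2 (SE 0.14, adjusted p = 0.0482), as described above. The value of Nfkbie kept its call without any single array.

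The remaining gene was Klrd1, a chain of an inhibitory NK cell receptor also carried by activated T cells, with 1.78 (SE 0.26, adjusted p = 0.0178; lost without CD4 AZA 1 or nTreg AZA 1, at 0.0522 and 0.0539). Klrd1 read 8.56, 8.16 and 8.0 in CD4 cells under PBS and 6.98, 6.63 and 7.08 with AzaC, and 6.86, 6.67 and 7.29 in nTregs under PBS and 7.59, 7.24 and 7.29 with AzaC. Of the 5 measured NK cell markers it was the 1 that passed for the interaction (0.203% of all genes).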

How the results depend on the processing

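Of the receptors' values under the alternatives, 995 kept their direction and their side of the threshold, 23 lost a call, 1 gained one and 21 changed sign, each sign change in a value that was not called. The number of receptors called with AzaC in nTregs (2) was 1 after repeated quantile normalization, 1 with the random replicate block (Tnfrsf8 lost, adjusted p = 0.0506) and 0 in a fit of only the groups compared. Without single arrays it was 0 to 2, against 1 to 2 in CD4 cells, 0 to 0 for the interaction, and 5 to 6 under PBS and 6 to 6 with AzaC between the populations. The fixed replicate block changed no receptor's call (Tnfrsf9 in nTregs, adjusted p = 0.00402) and gave 451, 380, 40, 1826 and 1434 called genes in the 5 comparisons, in the order of this section. It ended the calls of Birc2 for the interaction (0.0519; 0.0521 with the random block), of Tradd in CD4 cells (0.0527), of Tnfsf4 (0.0530) and Birc3 (0.0534) under PBS, and of Traf1 (0.0558) and Bid (0.0606) between the populations with AzaC. With array weights Tnfrsf4 passed in nTregs (0.27, adjusted p = 0.0491); nTreg PBS 1 had a weight of 0.194.

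Among all genes, the 448 called with AzaC in nTregs became 125 in a fit of only the groups compared and 1290 with array weights (186 to 447 without single arrays). The 391 in CD4 cells became 1291 with array weights (164 to 1044, the highest without nTreg PBS 1). The 45 of the interaction became 83 with the filter on dim genes, 89 with centred arrays (82 above 0 and 7 below, against 32 and 13) and 401 with array weights (9 to 69). Between the populations, 1777 under PBS became 648 in a fit of only the groups compared (1042 to 1862), and 1498 with AzaC became 2350 in that fit and 3500 with array weights (896 to 2467).

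Sign changes with AzaC in nTregs were those of Tnfrsf25 (0.025 with centred arrays; −0.19 to 0.10 without single arrays) and Tnfrsf14 (−0.0082 with array weights; −0.0378 to 0.23). In CD4 cells they were those of Tnfrsf18 (−0.0107 with centred arrays and −0.0194 with array weights; −0.0166 to 0.14) and Tnfrsf8 (−0.0289 to 0.28). For the interaction Tnfrsf18 stood at −0.0060 after repeated quantile normalization. Between the populations Tnfrsf25 under PBS stood at 0.0833 after repeated quantile normalization and 0.132 with array weights (−0.14 to 0.14), and Tnfrsf14 with AzaC at 0.0105 with centred arrays and 0.050 with array weights (−0.15 to 0.0649). Of 85 calls of ligand, pathway and marker genes, T cell and myeloid markers not among them, 52 were kept under every alternative and 33 were lost under at least 1. A fit of 2 groups has fewer samples, and the cause of these changes was not tested. Signals of 16171 genes, all 10 receptors among them, passed the filter on dim genes.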

Other observations

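A further array row carries the symbols of Tnfrsf18 and of the predicted gene Gm16008 together, so it was left out of the receptor comparisons. It read 6.80, 6.62 and 6.96 in CD4 cells under PBS and 6.91, 6.69 and 6.63 with AzaC. In nTregs it read 7.11, 7.07 and 7.42 under PBS and 7.44, 7.51 and 7.28 with AzaC. All 6 nTreg arrays lay above all 6 CD4 arrays, and the groups with and without AzaC overlapped in both populations. Which of the 2 genes gives this signal was not tested.

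Of 11 measured myeloid and dendritic cell markers, Itgam, the integrin CD11b, was lower with AzaC in nTregs (0.6% of all genes fell there). It read 7.33, 7.83 and 7.59 under PBS and 6.26, 6.79 and 6.88 with AzaC (−0.94, SE 0.21, adjusted p = 0.0335), with no overlap. This call was not put through the alternatives. In CD4 cells Itgam stood at −0.55 with no overlap (adjusted p = 0.226), and the interaction did not pass in limma (−0.39, adjusted p = 0.482). The other 10 did not pass, and the mean of the 11 lay at 6.29 to 6.50 under PBS and 6.05 to 6.24 with AzaC.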
